A study of Mus musculus with 20 samples.

Results

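The genes described here make, break down or sense prostaglandins: Ptgs1, Ptgs2, Ptges, Ptges2, Ptges3, Ptgis, Hpgd, Ptger1, Ptger2 and Ptger4. They were picked by symbol and are 10 of the 35285 genes in the expression table. All 10 averaged 1 or more over the libraries, which placed them among the 13549 genes tested, but Ptgis did so only through its Tnfr2-/- libraries (mean 1.90, against 0.257 in WT). A gene admitted in that way had to differ, so the calls of Ptgis are given as a description and support nothing. The values come from mouse colonoids, which are epithelial structures grown from colonic crypts in Matrigel. The cultures were WT or carried the whole-body Tnfr2-/- deletion, which targets the tumor necrosis factor receptor gene Tnfrsf1b in every cell type. After 5 passages they were filtered through mesh, seeded again and collected on days 1, 2, 3, 5 and 7 after that passage (days post-passage, DPP), with no other treatment named in the labels. Each of the 10 groups (2 genotypes, 5 days) held 2 libraries, 1 from each of the 2 mice of that genotype, so the 5 libraries of a mouse are repeated samples of the same animal. Days 1 to 3 are called early and days 5 and 7 late, which gives 6 early and 4 late libraries per genotype. The study's methods give 8 weeks as the age of the mice behind its colonoid cultures, and mice of both sexes.

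Prostaglandins are short-lived lipid signals made from arachidonic acid. A phospholipase A2 frees the acid from membranes, a cyclooxygenase (COX-1, encoded by Ptgs1, or the inducible COX-2, encoded by Ptgs2) turns it into prostaglandin H2, and a terminal synthase turns that into a final product such as prostaglandin E2 (PGE2). Hpgd encodes 15-hydroxyprostaglandin dehydrogenase, the enzyme that starts PGE2 breakdown, and Ptger1, Ptger2 and Ptger4 encode the PGE2 receptors EP1, EP2 and EP4. In the colon, PGE2 from stromal and epithelial cells is known for supporting crypt repair after injury.

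Ptgs2 and Ptges, which encode COX-2 and the inducible PGE2 synthase of microsomes (mPGES-1), had the largest late log2 fold changes between genotypes among the members detected in every library, and the 250 bases upstream of their transcription starts are shown for that reason. The sequences are RefSeq's for GRCm38.p6, read 5′ to 3′ on the strand of the gene, with matches to the searched motifs in capitals. The Ptgs2 window is chr1:150099781-150100030 on the plus strand and the Ptges window is chr2:30903298-30903547 on the minus strand.
Ptgs2: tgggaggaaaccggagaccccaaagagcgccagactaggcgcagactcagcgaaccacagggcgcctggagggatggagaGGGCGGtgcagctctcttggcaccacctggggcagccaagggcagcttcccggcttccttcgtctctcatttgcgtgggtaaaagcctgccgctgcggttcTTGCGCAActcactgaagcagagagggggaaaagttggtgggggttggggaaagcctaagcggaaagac
Ptges: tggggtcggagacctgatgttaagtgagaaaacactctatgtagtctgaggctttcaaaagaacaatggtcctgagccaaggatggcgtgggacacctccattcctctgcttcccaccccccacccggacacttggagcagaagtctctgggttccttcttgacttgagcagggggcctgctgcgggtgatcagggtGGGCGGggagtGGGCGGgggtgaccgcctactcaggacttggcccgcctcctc

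Both strands were searched for 6 motifs: the C/EBP core TTGCGCAA, the cyclic AMP response element TGACGTCA, the E-box CACGTG, the GC box GGGCGG, the TATA box TATAAA and the NF-kappaB consensus. The Ptgs2 window held the C/EBP core, which starts 69 bases upstream of the transcription start and occurs in 0.164% of the 32851 promoter windows of the same length, and a GC box 170 bases upstream. The Ptges window held 2 GC boxes, 53 and 42 bases upstream, a motif found in 32.7% of all windows. Of the motifs searched, the GC box was the one that both windows held. Promoter entries were matched for 8 of the 10 genes, and Ptgis and Ptger1 had none. A match here is a run of letters and no evidence of binding.

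The table holds TPM values, which are transcript abundances scaled for transcript length and library size, divided by 1 size factor per library. They were summed here per gene, and the sum is called normalised expression. Because it is corrected for transcript length, levels can be set beside each other between genes, but it carries no read depth, so the depth behind each value is unknown. Library sums ran from 900655 to 1111080, 13016 to 13476 genes reached a value of 1, and the 2 libraries of a group correlated at r = 0.923 to 0.956 across genes, which are not independent replicates. The targeted gene, Tnfrsf1b, was at 11.1 to 21.9 in the 10 WT libraries and at 2.71 to 11.5 in the 10 Tnfr2-/- libraries, where the mouse 2 library at 7 DPP was the highest and the only one to reach into the WT range. The table holds transcripts and not exons, so it does not show whether those reads lie in the deleted part. The members' calls are therefore also given without that library. The epithelial keratin Krt8 was at 3463 to 6607 in all libraries.

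The cultures also held fibroblast transcripts. The summed level of 10 fibroblast markers was 2091 to 4284 in early WT, 1234 to 4003 in late WT, 3147 to 4698 in early Tnfr2-/- and 3731 to 8528 in late Tnfr2-/- libraries. Late after passage, 3 of the 10 markers were called higher in Tnfr2-/- cultures by limma, beside 3.79% of all genes tested. They were Dcn, a collagen-binding proteoglycan (log2 fold change 2.74, SE 0.22, adjusted p = 2.17e-05), the intermediate filament gene Vim (1.69, SE 0.34, adjusted p = 0.0123) and the mesenchymal factor Twist1 (1.75, SE 0.31, adjusted p = 0.00558). The receptor gene Pdgfra, which marks colonic fibroblasts, was at 0.37 (SE 0.30, adjusted p = 0.504), and its late values of 32.4, 53.7, 66.0 and 83.2 in Tnfr2-/- libraries overlapped those of 20.6, 44.5, 56.6 and 64.4 in WT. In these bulk samples, fewer cells of a type and less RNA per cell cannot be told apart. The pan-immune marker Ptprc stayed at or below 0.753 in every library and the mast cell gene Cpa3 and the tuft cell factor Gfi1b were listed at 0 in all 20, whereas Cd68, a lysosomal gene of macrophages and other cells, was called higher in late Tnfr2-/- cultures (1.35, SE 0.24, adjusted p = 0.00642).

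**Figure D1:**
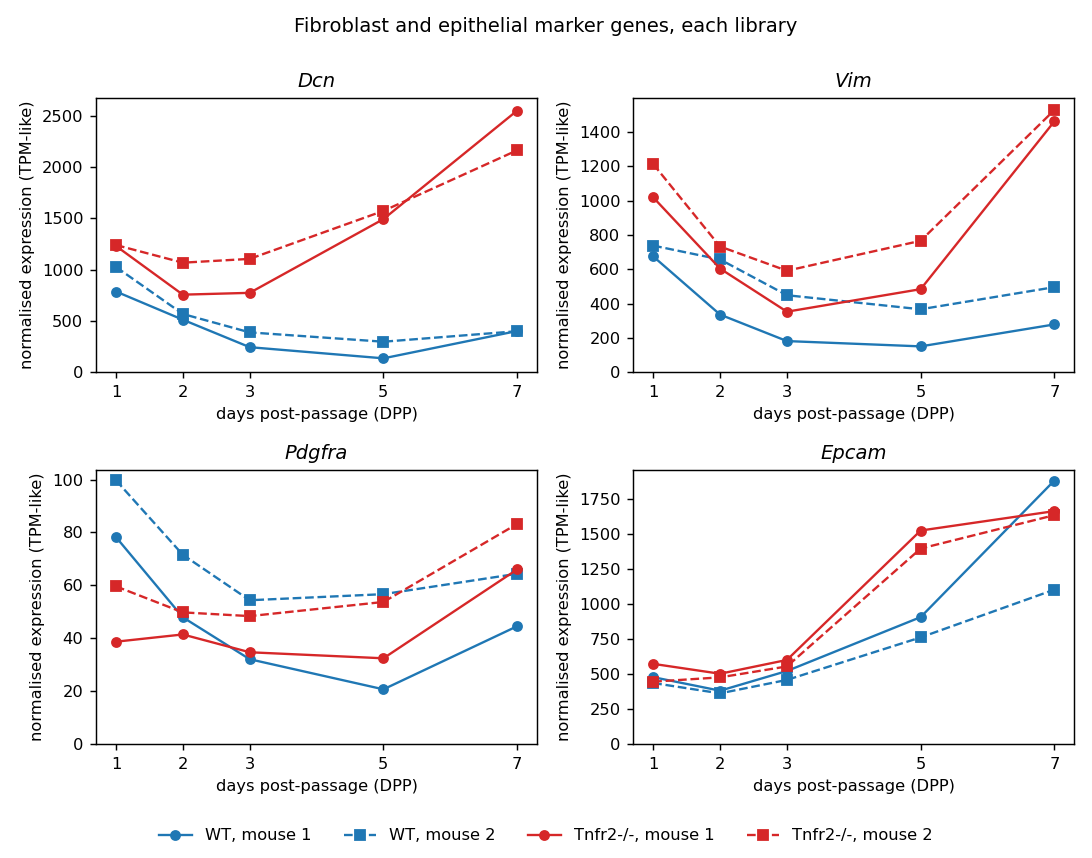
Normalised expression (y axis, TPM-like, from 0) of the fibroblast markers Dcn, Vim and Pdgfra and the epithelial marker Epcam against days post-passage (x axis), 1 line per mouse, blue for WT and red for Tnfr2-/-. Late Dcn lies at 1493 to 2551 in Tnfr2-/- and at 135 to 402 in WT libraries, while the late ranges of Pdgfra and Epcam overlap between genotypes.

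Averaged over the 20 libraries, Ptgs2 was the highest member at 279 ± 155 (SD), followed by Ptges3 at 172 ± 27.2, Ptgs1 at 107 ± 53.7, Ptges at 60.3 ± 35.7, Ptges2 at 27.4 ± 6.10 and Hpgd at 27.1 ± 18.6. The receptors were lower, with Ptger4 at 7.75 ± 4.58, Ptger2 at 3.90 ± 1.87 and Ptger1 at 2.11 ± 1.94, and Ptgis averaged 1.08 with 7 libraries at 0. Every neighbouring pair in this order had overlapping ranges across libraries, so the order holds for the means over all 20 libraries only. In the late WT libraries it turned, with Ptges3 (mean 140) above Ptgs2 (118) and Hpgd (56.9) above Ptges (36.9).

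The comparisons were fitted with limma across all genes tested, on log2(value + 1), with Benjamini-Hochberg adjustment over those genes, and a gene was called at an adjusted p under 0.05. The genes were proposed with earlier results of these data known, so the adjusted p places a member among all genes and is not independent evidence for the set. Late after passage, 3 of the 10 members were called between genotypes, all higher in Tnfr2-/- cultures (Ptgs2, Ptges and Ptger2), beside 6.42% of all genes tested (3.79% higher and 2.63% lower). The median late log2 fold change of the 9 members other than Ptgis was 0.18, against -0.05 for all genes tested. Early after passage the single call was Ptgis, a member that its Tnfr2-/- values alone brought into the test and that was higher in Tnfr2-/- cultures, beside 1.2% of all genes (0.768% higher and 0.428% lower). The change of the genotype effect from early to late was called for 1 member, Ptges, toward Tnfr2-/-, beside 0.148% of all genes (0.118% in that direction and 0.0295% in the other). With all 5 days together, Ptges was called, and so was Ptgis with the same reservation, both higher in Tnfr2-/- cultures, beside 7.59% of all genes (4.51% higher and 3.09% lower). These fits take each library as a replicate. On mouse means, 2 mice against 2, limma called none of the 10 in these 4 comparisons. Of all 13549 genes it called 0 late, 3 early, 1 for the change of effect and 7 over all days. A genotype call lost on mouse means therefore does not set a member apart from other genes. Of the 9 members other than Ptgis, 5 were at an unadjusted p under 0.05 late on mouse means (14.0% of all genes), none early (8.1%), 4 for the change of effect (11.9%) and 2 over all days (11.2%). Without the Tnfr2-/- library of mouse 2 at 7 DPP, where Tnfrsf1b reached the WT range, the late calls of Ptgs2 (2.16, adjusted p = 0.00892) and Ptges (1.75, adjusted p = 0.00166) and both Ptgis calls (early adjusted p = 0.0353, all days 0.000833) held. Those of Ptger2 late (adjusted p = 0.119), Ptges over all days (0.0674) and the change of effect on Ptges (0.0975) were lost without it.

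**Figure D2:**
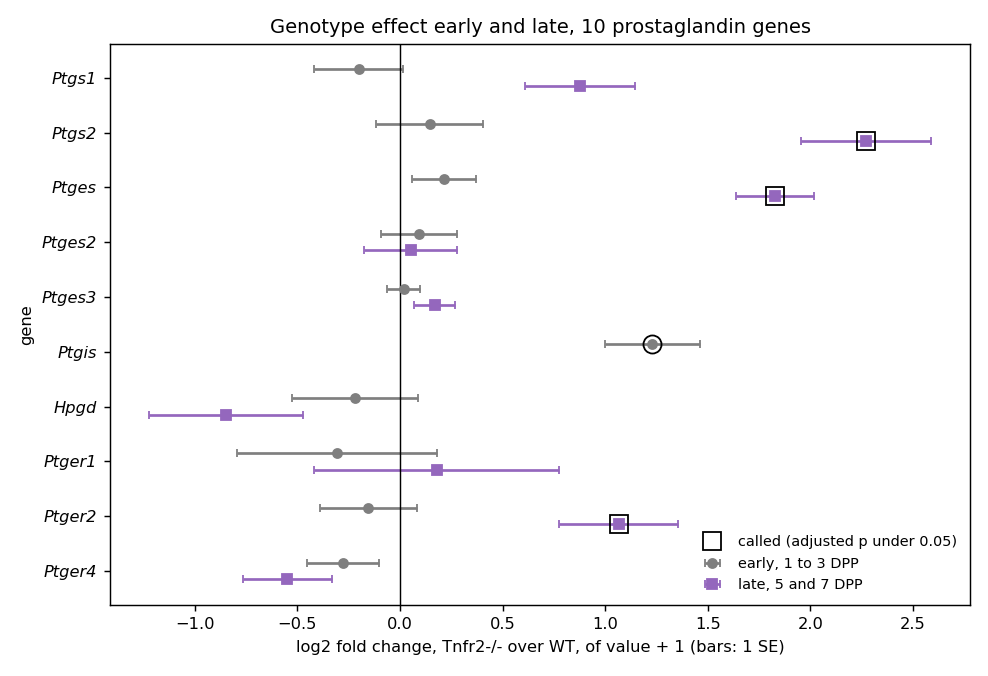
Log2 fold change of Tnfr2-/- over WT on the value + 1 scale (x axis, bars 1 SE) for each of the 10 genes (y axis), grey circles for 1 to 3 DPP and purple squares for 5 and 7 DPP, with a black outline where the gene was called. Ptgs2 moves from 0.14 early to 2.27 late and Ptges from 0.21 to 1.83, whereas Hpgd and Ptger4 lie below 0 at both times, and no late point is drawn for Ptgis, which was at 0 in the late WT libraries.

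Ptgs2 (ENSMUSG00000032487, chr1:150100031-150108227, plus strand, GRCm38) carries the inducible cyclooxygenase. In WT cultures it was at 389 and 410.1 in mice 1 and 2 on day 1, at 223 and 288 on day 2, at 66.0 and 182 on day 3, at 44.2 and 108 on day 5 and at 214 and 108 on day 7. In Tnfr2-/- cultures it was at 371.5 and 351 on day 1, at 271 and 192 on day 2, at 182.5 and 182 on day 3, at 541 and 494 on day 5 and at 412 and 560.2 on day 7. Over the pooled early days the genotypes overlapped, with both Tnfr2-/- values below both WT values on day 1 and above both on day 3, there by a margin of less than 1 over WT mouse 2. Late they were apart, with the lowest late Tnfr2-/- library above the highest late WT library. The late means were 502 ± 65.9 in Tnfr2-/- and 118 ± 70.2 in WT (SD, n = 4 libraries from 2 mice each).

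On the log2 scale the late genotype effect on Ptgs2 was 2.27 (SE 0.32, limma adjusted p = 0.00132), the 63rd smallest p of the 13549 genes, while the early effect was 0.14 (SE 0.26, adjusted p = 0.875). Ptgs2 fell in WT cultures from early to late (-1.12, SE 0.29, adjusted p = 0.0165) and rose in Tnfr2-/- cultures (1.01, SE 0.29, adjusted p = 0.0257). The difference of these changes was 2.13 (SE 0.41) with an adjusted p of 0.0647, which missed the threshold; it passed with the replicate number as a block (adjusted p = 0.0325) and when libraries of a mouse were allowed to correlate (adjusted p = 0.0409). Leaving out the WT library of mouse 1 at 3 DPP, of mouse 2 at 5 DPP or of mouse 1 at 7 DPP also brought it under the threshold (adjusted p = 0.0262, 0.0174 and 0.0439). The late genotype call held without any single library, at an adjusted p of at most 0.00892, but was lost on mouse means, 2 mice against 2 (adjusted p = 0.0978), and without all libraries of either Tnfr2-/- mouse (adjusted p = 0.136 and 0.173). The fall in WT was lost without mouse 1 at 5 DPP (0.090) or mouse 2 at 7 DPP (0.0656), as limma adjusted p, and the rise in Tnfr2-/- was lost without any of 6 of its libraries (mouse 1 at 3 and 5 DPP, mouse 2 at 1, 2, 5 and 7 DPP), at an adjusted p of 0.0517 to 0.102, and without a filter on low values (0.054).

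Ptgs1 (ENSMUSG00000047250, chr2:36230426-36252272, plus strand) carries the constitutive cyclooxygenase. Over the early days it ran from 45.5 to 214 in WT (median 143) and from 80.5 to 176 in Tnfr2-/- libraries (median 102). Late, it was at 27.1, 45.1, 52.5 and 80.0 in WT and at 56.5, 80.0, 102 and 132.5 in Tnfr2-/- libraries, so the late groups overlapped. It fell in WT cultures from early to late (-1.41, SE 0.24, adjusted p = 0.00179) and was at -0.33 (SE 0.24, adjusted p = 0.387) in Tnfr2-/- cultures, and the difference of these changes was not called (1.08, SE 0.34, adjusted p = 0.242). The late genotype effect was 0.88 (SE 0.27, adjusted p = 0.0702), and it passed without either WT library at 3 DPP (adjusted p = 0.0223 each) or without WT mouse 2 at 5 DPP (adjusted p = 0.0371). Of the summed value, 57.6% lay in the coding transcript, and the share was 39.3% in late WT and 56.1% in late Tnfr2-/- libraries.

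Set against each other within a library, summed Ptgs2 values exceeded summed Ptgs1 values by 1.45 to 2.03 times in early WT and by 1.81 to 2.76 times in early Tnfr2-/- libraries. Late, the ratio of Ptgs2 to Ptgs1 was 1.63, 2.05, 2.39 and 2.67 in WT and 4.04, 4.23, 6.17 and 9.57 in Tnfr2-/- libraries. The late groups did not overlap in this ratio of summed values, and the highest ratios were those of the Tnfr2-/- libraries at 5 DPP. With protein-coding transcripts alone, an alternative chosen after seeing the data, the late ratio was 2.39, 3.47, 7.39 and 26.4 in WT and 6.14, 8.38, 11.1 and 19.5 in Tnfr2-/- libraries, and the groups overlapped.

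**Figure D3:**
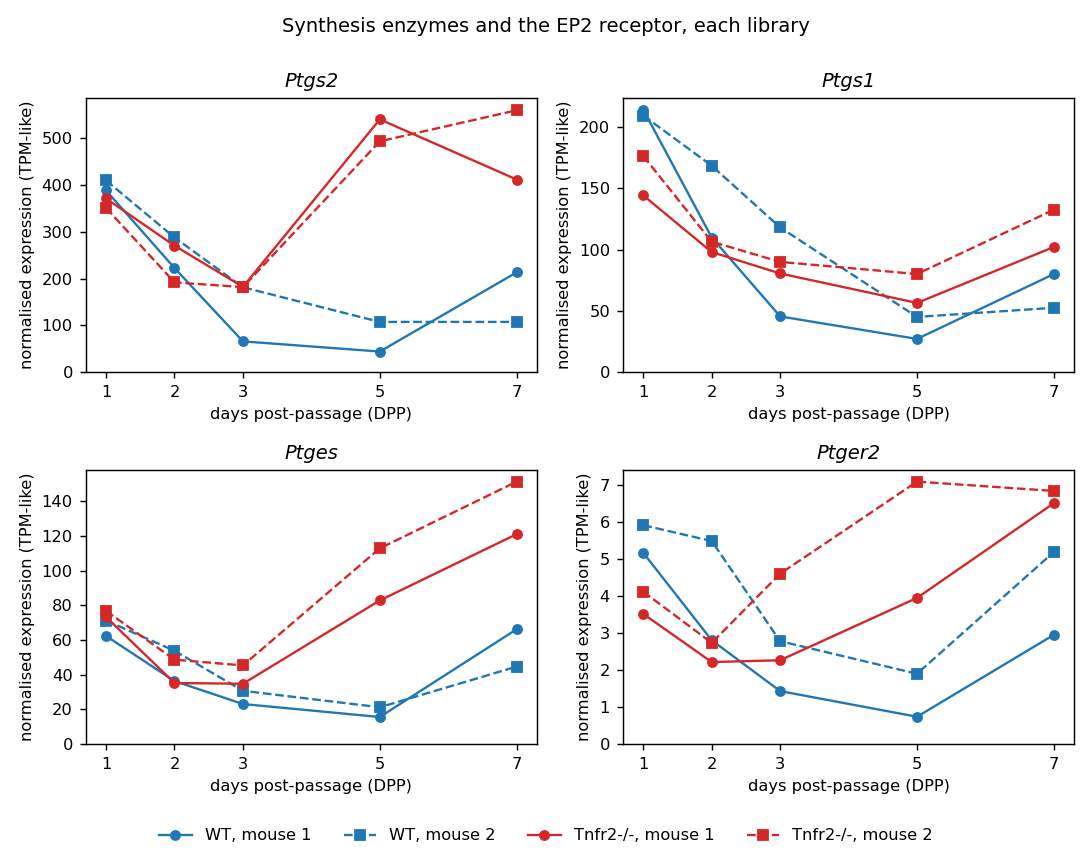
Normalised expression (y axes, TPM-like, from 0) of Ptgs2, Ptgs1, Ptges and Ptger2 against days post-passage (x axes), 1 line per mouse, blue for WT and red for Tnfr2-/-. Ptgs2, Ptges and Ptger2 are higher on days 5 and 7 than on day 3 in both Tnfr2-/- mice, and Ptgs2 and Ptges separate from WT on days 5 and 7.

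Ptges (ENSMUSG00000050737, chr2:30889471-30929863, minus strand) encodes mPGES-1, which works downstream of the cyclooxygenases and makes PGE2. In WT cultures it was at 62.3 and 71.2 in mice 1 and 2 on day 1, at 36.3 and 53.7 on day 2, at 23.0 and 30.7 on day 3, at 15.5 and 21.2 on day 5 and at 66.2 and 44.6 on day 7. In Tnfr2-/- cultures it was at 73.3 and 76.8 on day 1, at 35.2 and 48.6 on day 2, at 34.7 and 45.3 on day 3, at 82.8 and 113 on day 5 and at 121 and 151 on day 7. As for Ptgs2, the early groups overlapped and the late groups did not. The late means were 117 ± 28.2 in Tnfr2-/- and 36.9 ± 23.3 in WT (SD, n = 4).

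The late genotype effect on Ptges was 1.83 (SE 0.19, adjusted p = 0.000171), the 17th smallest p of all genes tested, against 0.21 early (SE 0.16, adjusted p = 0.631). The difference between them was 1.61 (SE 0.25, adjusted p = 0.0343), and 20 of the 13549 genes were called in that comparison. The fibroblast marker Dcn was among them (1.81, SE 0.29, adjusted p = 0.0405), and it too was lost without the Tnfr2-/- library of mouse 2 at 7 DPP (adjusted p = 0.0975). Ptges rose in Tnfr2-/- cultures from early to late (1.19, SE 0.17, adjusted p = 0.000573), and in WT cultures it was at -0.43 (SE 0.17, adjusted p = 0.101), which passed with the replicate number as a block (adjusted p = 0.0484) and with every library rescaled to the same sum (adjusted p = 0.043), but not on mouse means (adjusted p = 0.108). The late call held without any single library (adjusted p at most 0.00166), and was lost on mouse means (adjusted p = 0.140) and without Tnfr2-/- mouse 2 (adjusted p = 0.0674). The call of the early to late difference was lost without 13 of the 20 libraries, at an adjusted p of 0.0518 to 0.130, and was kept without WT mouse 1 at 2, 3 or 7 DPP, WT mouse 2 at 5 DPP, Tnfr2-/- mouse 1 at 5 DPP, or Tnfr2-/- mouse 2 at 2 or 3 DPP. Over all days Ptges was at 0.86 (SE 0.24, adjusted p = 0.0345), a call lost without any of 9 libraries (all 4 at 5 DPP, WT mouse 1 and Tnfr2-/- mouse 2 at 3 DPP, and WT mouse 2 and both Tnfr2-/- mice at 7 DPP; adjusted p 0.0575 to 0.0705) and when libraries of a mouse were allowed to correlate (adjusted p = 0.0818), and also without a filter on low values (adjusted p = 0.0644).

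In the annotation, 58.7% of the Ptges value was assigned to the coding transcript and 38.3% to a processed transcript without a coding frame. The coding transcript alone was at 46.2 to 98.3 in late Tnfr2-/- and at 6.51 to 33.6 in late WT libraries, with no overlap, and the main processed transcript was at 32.2 to 53.1 and at 3.43 to 32.6, with overlap at the edge. The promoter window printed above ends directly upstream of the start of the coding transcript.

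Of the other terminal synthases, Ptges2 and Ptges3 differed less between genotypes than Ptges. Ptges2 (ENSMUSG00000026820, chr2:32395896-32405772, plus strand), which encodes the PGE2 synthase mPGES-2, lay between 18.7 and 37.2 in all libraries and was called in none of the 6 comparisons, with log2 fold changes of 0.09 early (SE 0.19) and 0.05 late (SE 0.23). Most of its value (82.4%) was assigned to a retained-intron transcript and 10.5% to the coding transcript. Ptges3 (ENSMUSG00000071072, chr10:128058954-128077272, plus strand) encodes p23, a co-chaperone that is also named cytosolic PGE2 synthase. It was at 154 to 234 (median 180.3) in early WT and at 132, 133, 145 and 151.0 in late WT libraries, a fall of 0.40 (SE 0.09, adjusted p = 0.00912) that was lost on mouse means (adjusted p = 0.0613). In Tnfr2-/- cultures it was at 171 to 205 early and at 150.4, 155, 160.5 and 166 late (-0.24, SE 0.09, adjusted p = 0.0777), and with every library rescaled to the same sum this fall passed too (-0.33, adjusted p = 0.0296). Ptges3 has a processed pseudogene copy, so its reads may be split and its values are less certain.

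Ptgis (ENSMUSG00000017969, chr2:167191805-167240604, minus strand) encodes prostacyclin synthase, an enzyme known from endothelium and stroma. It was listed at 0 in 7 libraries, all WT: mouse 1 from day 2 on and mouse 2 from day 3 on. The remaining WT values were 1.39 and 0.768 on day 1 and 0.409 on day 2. In Tnfr2-/- cultures it was at 5.04 and 4.11 on day 1, at 2.39 and 1.25 on day 2, at 0.843 and 1.28 on day 3, at 0.678 and 1.54 on day 5 and at 1.14 and 0.693 on day 7. On each day both Tnfr2-/- libraries lay above both WT libraries. Since only its Tnfr2-/- values brought it past the filter, the fitted values are descriptions: 1.23 early (SE 0.23, adjusted p = 0.0203) and 1.13 over all days (SE 0.17, adjusted p = 0.000451), and both calls were lost on mouse means (adjusted p = 0.425 and 0.305). The early call was lost without WT mouse 2 at 1 DPP, Tnfr2-/- mouse 1 or WT mouse 1 at 2 DPP, or Tnfr2-/- mouse 2 at 3 DPP, at an adjusted p of 0.0582 to 0.0761. No fold is given late, since the 4 late WT libraries were at 0, and Ptgis was not tested without either Tnfr2-/- library at 1 DPP, where its mean fell below 1.

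Hpgd (ENSMUSG00000031613, chr8:56294585-56321043, plus strand), the breakdown enzyme, followed another course. Early, it ran from 6.26 to 34.2 in WT (median 18.8) and from 9.89 to 17.3 in Tnfr2-/- libraries (median 13.0). Late, it was at 41.1, 56.0, 62.4 and 68.2 in WT and at 18.5, 34.5, 34.6 and 39.7 in Tnfr2-/- libraries. Every late Tnfr2-/- library was below every late WT library, although the highest and lowest were close. Hpgd rose from early to late in both genotypes, by 1.80 in WT (SE 0.34, adjusted p = 0.00324) and by 1.17 in Tnfr2-/- cultures (SE 0.34, adjusted p = 0.0285). The late genotype effect was -0.85 (SE 0.38, adjusted p = 0.200) and was not called, nor was the change from early to late (-0.63, SE 0.49, adjusted p = 0.645). In WT, the early values of mouse 1 (21.4, 22.3 and 34.2) were above those of mouse 2 (7.37, 6.26 and 16.3), and without WT mouse 2 the late effect was -1.07 with an adjusted p of 0.0182. The Tnfr2-/- rise was lost without any of 8 of its libraries (all but those of mouse 2 at 1 and 5 DPP), at an adjusted p of 0.0511 to 0.128, and without a filter on low values (0.0584). Of markers of differentiated epithelium, the summed absorptive colonocyte markers were at 358 to 1200 in late WT and 380 to 437 in late Tnfr2-/- libraries. The WT sums were 1200 and 1198 in mouse 1 and 358 and 476 in mouse 2. Of 7 markers tested, limma called 1 lower (Car1, -4.735, adjusted p = 0.0317), beside 2.63% of all genes tested. That call was lost without the Tnfr2-/- library of mouse 2 at 7 DPP, where the effect was -4.764. Krt20, the highest of that list, was the 1 marker above 0 (0.56, adjusted p = 0.294). The summed goblet cell markers were at 184 to 1802 in late WT and 99.1 to 243.5 in late Tnfr2-/- libraries. None of 5 was called by limma (3 at an unadjusted p under 0.05, beside 22.8% of all genes tested). The summed general epithelial markers were at 14670 to 18110 and 13110 to 18640, and the part of these cells in the Hpgd values was not tested.

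Among the members, Ptgs2 and Ptges were higher in every late Tnfr2-/- library than in any late WT library, beside 5.37% of all genes tested (Ptgis was too, but only its Tnfr2-/- values admitted it), and 1 was lower in every library (Hpgd), beside 6.07%. Early, none of the 10 was free of overlap in either direction, beside 0.576% of all genes tested that were higher in every Tnfr2-/- library and 0.701% that were lower. The ratio of Ptges to Hpgd, which sets the transcript of a PGE2-making enzyme against that of the PGE2-degrading enzyme, was 0.672 to 9.66 in early WT and 2.00 to 6.14 in early Tnfr2-/- libraries. Late, it was 0.249, 0.515, 0.797 and 0.970 in WT and 2.40, 3.05, 4.39 and 6.10 in Tnfr2-/- libraries. In late cultures the Hpgd transcript thus outnumbered that of Ptges in each WT library and was outnumbered by it in each Tnfr2-/- library, and no protein or prostaglandin was measured here. With coding transcripts alone the late ratio was 0.104 to 0.492 in WT and 1.34 to 3.57 in Tnfr2-/- libraries.

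**Figure D4:**
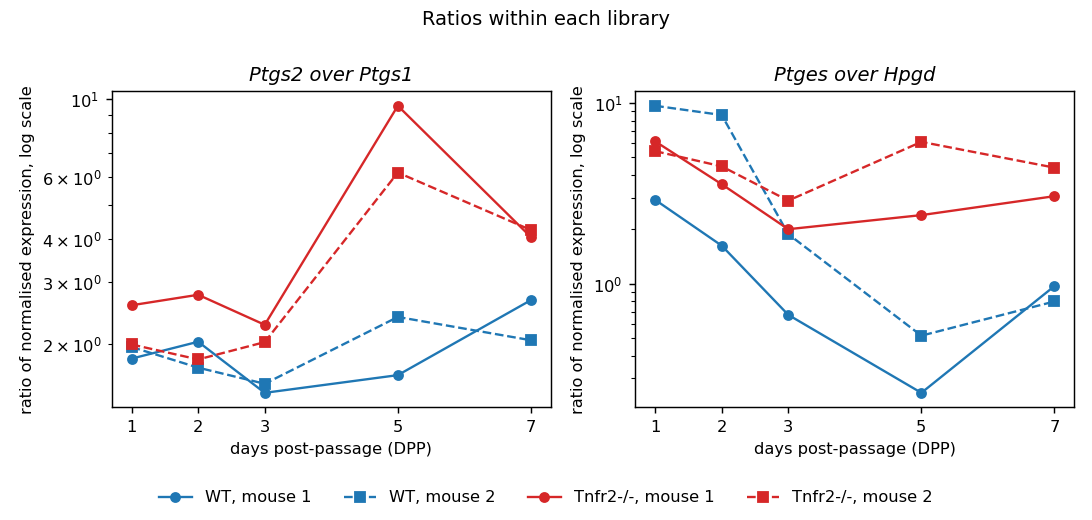
Ratio of normalised expression, summed over all transcripts of a gene, within each library (y axes, log scale) against days post-passage (x axes), Ptgs2 over Ptgs1 at left and Ptges over Hpgd at right, 1 line per mouse, blue for WT and red for Tnfr2-/-. On days 5 and 7 the Ptges to Hpgd ratio is below 1 in the WT libraries and at 2.40 to 6.10 in the Tnfr2-/- libraries.

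Ptger2 and Ptger4 encode EP2 and EP4, the PGE2 receptors that raise cyclic AMP. Ptger2 (ENSMUSG00000037759, chr14:44988195-45003820, plus strand) ran early from 1.43 to 5.91 in WT (median 3.98) and from 2.21 to 4.60 in Tnfr2-/- libraries (median 3.12). Late, it was at 0.733, 1.89, 2.95 and 5.19 in WT and at 3.94, 6.50, 6.83 and 7.08 in Tnfr2-/- libraries, where 1 WT library (mouse 2 at 7 DPP) lay inside the Tnfr2-/- range. The late effect was 1.07 (SE 0.29, adjusted p = 0.0440) and was called by a narrow margin. It was lost without 12 of the 20 libraries (adjusted p 0.0555 to 0.173) and was kept without any library at 3 DPP, either WT library at 2 DPP, or WT mouse 2 at 5 or 7 DPP. It was also lost when every library was rescaled to the same sum (adjusted p = 0.0579) and without a filter on low values (adjusted p = 0.0766). The change of effect from early to late was 1.22 (SE 0.37, adjusted p = 0.226), and passed with the replicate number as a block (adjusted p = 0.0481). The course within Tnfr2-/- cultures was 0.75 (SE 0.26, adjusted p = 0.0611) and passed with that block (adjusted p = 0.0116), with libraries of a mouse allowed to correlate (adjusted p = 0.0331) and without Tnfr2-/- mouse 2 at 3 DPP (adjusted p = 0.0430), but not on mouse means (adjusted p = 0.0799).

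Ptger4 (ENSMUSG00000039942, chr15:5206661-5244187, minus strand) rose from early to late in both genotypes, by 1.11 in WT (SE 0.20, adjusted p = 0.00211) and by 0.84 in Tnfr2-/- cultures (SE 0.20, adjusted p = 0.00953). It was at 4.12 to 6.58 (median 6.13) in early WT and at 3.72 to 5.28 (median 4.72) in early Tnfr2-/- libraries. Late, it was at 7.93, 13.0, 13.4 and 23.1 in WT and at 7.49, 8.401, 9.13 and 10.7 in Tnfr2-/- libraries. The groups overlapped in both phases, and WT mouse 1 at 7 DPP was the highest of all. The late genotype effect was -0.55 (SE 0.22, adjusted p = 0.15), and that over all days was -0.39 (SE 0.14, adjusted p = 0.101), which passed with every library rescaled to the same sum (-0.45, adjusted p = 0.0481). The Tnfr2-/- rise was lost without mouse 1 at 7 DPP (adjusted p = 0.0528) and on mouse means (adjusted p = 0.0526).

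Ptger1 (ENSMUSG00000019464, chr8:83666678-83672753, plus strand), the EP1 receptor gene, was at 0.4934 to 7.24 across libraries and was called in none of the 6 comparisons. Its coding transcript held 24.5% of the value, so its values are uncertain. The annotation places genes on the other strand over Ptgs1, Ptgis, Ptger2 and Ptger4, and genes on the same strand over Ptges and Hpgd. Since the strand setting of the quantification is not given in the sources used here, reads of these members may be shared with them.

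**Figure D5:**
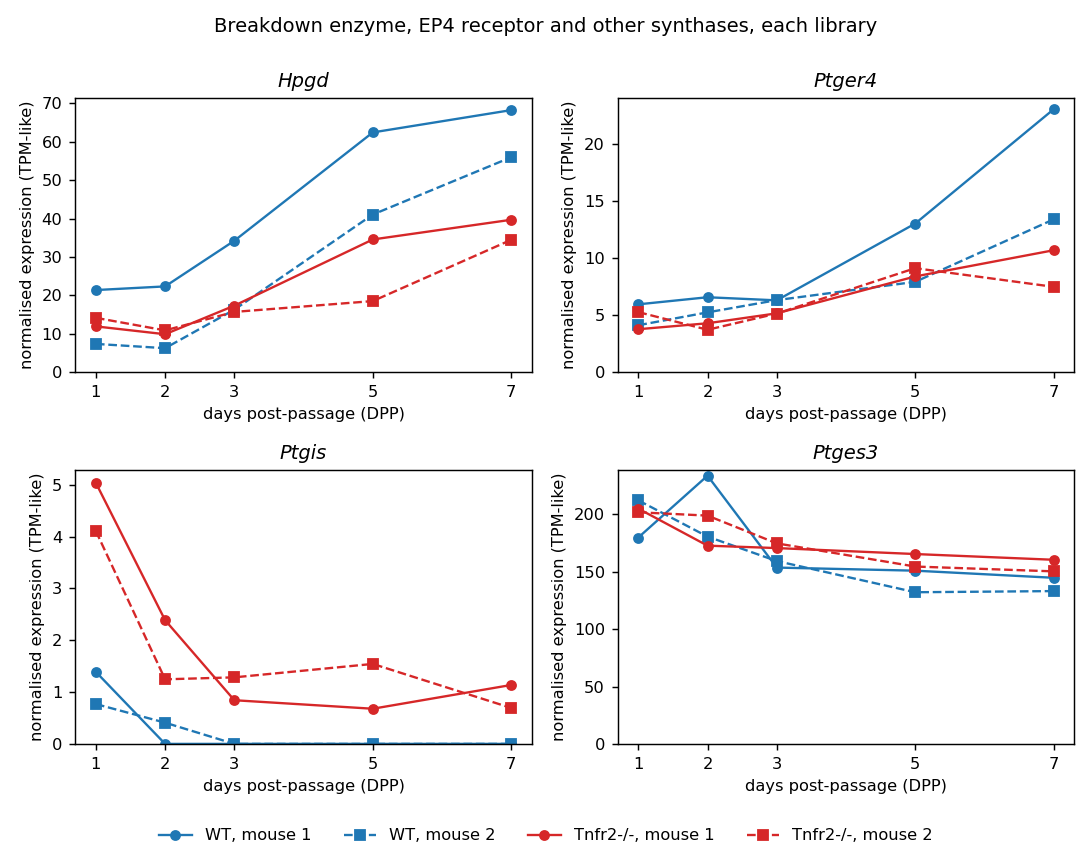
Normalised expression (y axes, TPM-like, from 0) of Hpgd, Ptger4, Ptgis and Ptges3 against days post-passage (x axes), 1 line per mouse, blue for WT and red for Tnfr2-/-. Hpgd and Ptger4 are higher late than early in both genotypes, late Hpgd is highest in WT mouse 1 (62.4 and 68.2), and Ptgis is at 0 in the late WT libraries.

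From early to late, 5 of the 10 members were called in WT cultures (Hpgd and Ptger4 higher, Ptgs1, Ptgs2 and Ptges3 lower), beside 20.1% of all genes tested (11.6% higher and 8.5% lower), and 4 in Tnfr2-/- cultures (Ptgs2, Ptges, Hpgd and Ptger4, all higher), beside 20.3% (10.4% higher and 9.91% lower). Ptgs2 was the member that was called in both genotypes in opposite directions. Hpgd and Ptger4 rose in both. Without the Tnfr2-/- library of mouse 2 at 7 DPP, the Tnfr2-/- calls of Ptges (adjusted p = 0.00458) and Ptger4 (0.0161) held and those of Ptgs2 (0.102) and Hpgd (0.0676) were lost. The 5 WT calls held, at an adjusted p of at most 0.0215.

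Across the 20 libraries (4 mice on 5 days, whose libraries share animal and time, so given as a description), log2 values of Ptgs2 and Ptges correlated at Pearson r = 0.889, Ptges and Ptger2 at 0.871, and Ptgs2 and Ptger2 at 0.791. Hpgd and Ptger4 correlated at 0.865, and Hpgd with Ptgs1 at -0.698. Of the fibroblast markers, Dcn, Vim, Twist1 and Pdgfra, picked with their values seen, were the ones correlated with the members. Ptges correlated with them at 0.884, 0.822, 0.719 and 0.552, and Ptgs2 at 0.882, 0.805, 0.815 and 0.551, in that order. The fibroblast markers did not share 1 course. From early to late in WT cultures, Thy1 rose (1.56, limma adjusted p = 0.0491). Over the same days Dcn (-0.9, limma adjusted p = 0.00777) and Twist1 (-1.21, limma adjusted p = 0.00912) fell. Hpgd and Ptger4 correlated with the epithelial gene Epcam at 0.721 and 0.763, against 0.168 for Ptgs2 and 0.443 for Ptges. Epcam was chosen after its values were seen, and the 7 epithelial markers did not share 1 course: in Tnfr2-/- cultures Epcam rose from early to late (1.57, adjusted p = 4.25e-05), while Krt8 (-0.43, adjusted p = 0.0136) and Krt19 (-0.31, adjusted p = 0.0298) fell. Every late Tnfr2-/- library lay above every late WT library in Dcn, as in Ptgs2 and Ptges, and the part of cell composition in the members' values was not tested.

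Measured by Pearson r over the same 20 libraries, the genes whose pattern was most like Ptgs2 were Ereg (0.937), Ptprn (0.937) and Tpm4 (0.932). For Ptges they were Mmp3 (0.965), Rgs16 (0.940) and Fam167a (0.934), and for Ptger2 Tnfrsf26 (0.928), Armcx4 (0.912) and Itga5 (0.9). Hpgd was followed by Oit1 (0.949), Ablim1 (0.946) and Ugt2b34 (0.943), and Ptger4 by Ctr9 (0.942), Ceacam20 (0.930) and Sept5 (0.924). For Ptgs1 they were Dusp5 (0.921), Zwint (0.897) and Fosl1 (0.895), and for Ptges3 Etf1 (0.880), Fam98b (0.872) and Sgpp1 (0.871). Ptgis came closest to Meis1 (0.855) and Cdh2 (0.844), Ptges2 to Gngt2 (0.816), Pkp4 (0.758) and Eif2b4 (0.736), and Ptger1 to Itga10 (0.707), Slamf8 (0.699) and Tnfrsf4 (0.680).

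Of 49 other genes of the pathway (phospholipases A2, other prostanoid synthases, transport and further breakdown, other prostanoid receptors and the lipoxygenase branch), 30 reached the filter. No gene among them was called by limma for the late genotype effect, the early effect or the change between them, where 6.42%, 1.2% and 0.148% of all genes were. At an unadjusted p under 0.05 there were 7 late, 4 early and 3 for the change, beside 22.8%, 12.9% and 11.7% of all genes tested. Over all days 1 of the 30 was called, beside 7.59% of all genes: Ptgir, the prostacyclin receptor, at 1.49 to 5.35 early and 3.63 to 12.4 late in Tnfr2-/- and at 0.887 to 1.78 and 1.27 to 5.66 in WT libraries (0.78, SE 0.19, adjusted p = 0.0194). The call was lost on mouse means (adjusted p = 0.452) and without 3 of the 4 mice, both WT mice and Tnfr2-/- mouse 2 (adjusted p up to 0.409). Pla2g4a, the cytosolic phospholipase A2 that feeds the cyclooxygenases and the highest of its list, was at 32.4 to 86.5 and was not called in any comparison.

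Over time, 9 of the 30 were called in WT cultures (8 higher, 1 lower), beside 20.1% of all genes tested, and 8 in Tnfr2-/- cultures (7 higher, 1 lower), beside 20.3%. Pla2g2f, called in both (1.49 in WT and 0.96 in Tnfr2-/-), had a mean of 0.271 early and 2.12 late, and of 1.47 in WT and 0.551 in Tnfr2-/- libraries. It reached the filter only through the late libraries, and only through those of WT, so its calls support nothing. It was not tested when any 1 of 7 late libraries was left out. In both genotypes the secreted phospholipases Pla2g2e (1.90 in WT and 1.27 in Tnfr2-/-) and Pla2g10 (2.49 and 2.29), the lipoxygenase gene Alox12 (1.91 and 1.38) and Lta4h, the leukotriene A4 hydrolase (0.77 and 0.68), rose on the log2 scale. Akr1b3, an aldose reductase that can make prostaglandin F2alpha, fell in both (-0.48 and -0.67). Pla2g5 (1.72), Cbr1 (0.96), a carbonyl reductase that acts on prostaglandins, and Ptgr2 (0.40), a reductase of the step after Hpgd, rose in WT cultures, and Akr1c18 (1.14) and Ptgir (1.14) in Tnfr2-/- cultures. Whether these courses differed between genotypes was covered by the test of the change of effect, which called none of them. Without the Tnfr2-/- library of mouse 2 at 7 DPP, the Tnfr2-/- calls of Pla2g10 (adjusted p = 0.0910) and Ptgir (0.0776) were lost.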

How the data were processed

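The labels and the study describe stranded mRNA libraries sequenced as single-end reads. Per the labels, the authors used CASAVA, kallisto and sleuth with mm10. The deposited table holds a signal per transcript and library, TPM divided by 1 size factor per library. It also holds the authors' own comparison of genotypes (test statistics, p-values and variances), which was not used. Repeated lines (781 of 113974) were dropped, the 199 transcripts without a gene identifier (at most 0.0989% of a library) were left out, and values were summed per gene. GENCODE M21 (GRCm38, the assembly also called mm10) matched 98.5% of gene identifiers, and 401 alternate-locus copies were merged.

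Genes with a mean of at least 1 were fitted on log2(value + 1) with limma 3.58.1 (mean-variance trend, R 4.3.3), as genotype plus day, or as 10 group means for the other 5 comparisons. p-values were adjusted by Benjamini-Hochberg over the 13549 genes. On this scale a fold change understates that of low genes. The files give no read depth, so no counting error is given. The fit was also run on simulated data in which libraries varied independently, and no result given here rests on that run.

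The members and gene lists were chosen with earlier results of these data known. All 10 members are named, other pathway genes where they were called or highest in their list, the 3 genes of highest r per member, and of each marker list up to 3 genes of highest mean or those at 0. Twist1, Thy1, Pdgfra, Epcam and Ptprc were named beyond that rule after their values were seen. Dcn, Vim, Car1 and Cd68 lie within it, but were also picked with their values seen, and not every gene of high mean in the marker lists is named. Of the genes the rule gives, 1 is not reported here. Ptgr3 and Prxl2b stand in the file under older symbols.

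The study's design text makes replicates mice, so the replicate number names the mouse within a genotype. Deviations of the same mouse on different days correlated at 0.0998 to 0.307 in WT and at -0.0513 to 0.0797 in Tnfr2-/-, so the late against early and change of effect comparisons are also given with that block where it alters a call. Alternatives were a pseudocount of 0.1, no filter or a filter at 5, rescaling, blocks, mouse means, and leaving out each library or mouse.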

Additional observations from a re-analysis of the deposited data

Results flagged for a closer look

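The genotype effect on Ptges differed between late and early days by a test of the difference itself, at 1.615 on the log2 scale (limma adjusted p = 0.0343), with all 4 late Tnfr2-/- libraries above all 4 late WT libraries and overlapping early groups. The call was lost without 13 of the 20 libraries (adjusted p up to 0.13) and on mouse means (adjusted p = 0.123), and the fibroblast marker Dcn was called in the same comparison (1.81, adjusted p = 0.0405), whose part in the Ptges value was not tested. No library stood apart from the others of its genotype and phase by Dixon's test in any of the 39 groups of member values tested, where chance gives about 1 in 20.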

How the results depend on the processing

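Depth is unknown, so no call can be weighed by its reads. With 2 mice a genotype and 5 libraries from each, calls between genotypes rest on libraries that share an animal, and on mouse means no member kept a genotype call. When all libraries of a mouse were left out, each group of its genotype kept 1 library, which was assumed to vary like the other groups.

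On mouse means the number of genes called by limma was 7 over all days, 0 late (1891 at an unadjusted p under 0.05), 3 early, 1 for the change of the genotype effect, 1721 for late against early in WT and 1788 in Tnfr2-/-; the members called were 0 in each of the 4 genotype comparisons, and the other pathway gene called over all days was also lost (0). When libraries of a mouse were allowed to correlate, 543 genes and 1 member (Ptgis, with the reservation given above) were called over all days. For the change of effect, 47 genes and 2 members (Ptges and Ptgs2) were called. Without a filter on low values 800 genes and 1 member (Ptgis) were called over all days, and 52 genes for the change of effect. With a filter at a mean of 5, Ptgis, Ptger1, Ptger2 and Ptgir were not tested. With that filter 821 genes, 1 member (Ptges) and 0 other pathway genes were called over all days, and 130 genes and 0 members early. For late against early in Tnfr2-/- it gave 2592 genes and 5 other pathway genes. A pseudocount of 0.1 gave 10 genes for the change of effect.

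With the replicate number as a block, 280 genes were called early, and 162 genes and 3 members (Ptges, Ptgs2 and Ptger2) for the change of effect. Late, 1238 genes were called, 2 other pathway genes among them. Between genotypes the number is only a name: same-numbered mice deviated with r = -0.0517 to 0.0769 over the 5 days. The block also brought Ptgs1 late under the threshold (adjusted p = 0.0311), and outside the values given here and beside the results it changed no other call of a member.

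Over all settings that left out 1 library or 1 mouse, the number of genes called was 142 to 1930 over all days, 20 to 2209 late, 16 to 729 early, 0 to 137 for the change of effect, 1033 to 2887 for late against early in WT and 2 to 3425 in Tnfr2-/-. The members called were 0 to 5, 0 to 6, 0 to 2, 0 to 3, 3 to 5 and 0 to 6 in the same order, and the other pathway genes 0 to 5, 0 to 3, 0 to 3, 0 to 1, 4 to 10 and 0 to 10. Without either Tnfr2-/- mouse the change of effect was called for 0 genes (709 and 953 at an unadjusted p under 0.05), and late genes fell to 24 and 20. Of single libraries, WT mouse 2 at 5 DPP raised the late count to 1453 and that of the change of effect to 137, and WT mouse 1 at 5 DPP lowered the late count to 286 and that of the change to 3.

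The direction changed for values that had not been called. Rescaled to the same sum, Ptges2 late was at -0.023 and Ptges3 early at -0.052, and with a pseudocount of 0.1 the change of effect for Ptgis was at 0.549. Across the left-out libraries and mice, Ptges2 ran from -0.098 to 0.251 over all days, from -0.128 to 0.232 late, from -0.209 to 0.395 early, from -0.361 to 0.28 for the change of effect and from -0.519 to 0.121 over time in WT. Ptger1 ran from -0.399 to 0.173 over all days, from -0.438 to 0.795 late, from -0.719 to 0.105 early, from -0.131 to 1.102 for the change, from -0.65 to 0.035 over time in WT and from -0.438 to 0.794 in Tnfr2-/-. Hpgd ran from -0.971 to 0.03 over all days and from -0.908 to 0.469 early, and early Ptgs1 from -0.525 to 0.12, Ptgs2 from -0.171 to 0.46, Ptges3 from -0.044 to 0.079 and Ptger2 from -0.417 to 0.107. Without WT mouse 2, Hpgd passed over all days (adjusted p = 0.000687) and early (0.0331), Ptger4 over all days (0.0255) and late (0.0256) and Ptgs2 over all days (0.0489). The causes were not tested.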
